A study of Danio rerio with 4 samples.

Results

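The genes of glycolysis and gluconeogenesis were followed in zebrafish embryos injected with a morpholino against Bad (MO-Bad) and in wild-type (WT) embryos, at 12 and 24 hours post fertilization (hpf). Of the 37 genes named, chosen by symbol as enzymes, regulators and a transporter of the pathway, 33 had a probe whose RefSeq accession led to the symbol, and 32 of these were bright enough to be tested among 10206 genes in all. These genes and the further lists were chosen with earlier results of these data known. The shares of all genes set beside their counts are thus no independent test. The 4 genes without such a probe (pfkpa, pfkla, pgam2 and pck1) are not analysed here, and the 1 probe of aldoca was not well above background on any array in either channel. Each group at each age was 2 pools of 200 whole embryos, and each morphant pool, injected with 2 to 3 nl at the 1-cell stage and labelled with Cy5, shared an array with a wild-type pool labelled with Cy3. The labels name no control morpholino and no dye swap and do not say whether the wild type was mock-injected, so knockdown, injection and dye cannot be told apart. They do not name the strain, the morpholino dose or its kind. In whole embryos, fewer cells of a type and less RNA per cell cannot be told apart either.

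Glycolysis turns glucose into pyruvate through a fixed row of enzymes, and gluconeogenesis runs most of the same steps backwards, with its own enzymes at the irreversible ones. Zebrafish carry many of these enzymes as pairs of paralogues left by a genome duplication, and the copies are often used by different tissues, such as skeletal muscle or brain. Bad is best known as a pro-apoptotic BH3-only protein of the Bcl-2 family, and in mice it has also been described in a complex with glucokinase.

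The share of probes well above background was 57.9% to 64.9% in the morphant channel and 55.9% to 61.5% in the wild-type channel. The 2 arrays of an age correlated at 0.702 (24 hpf) and 0.734 (12 hpf) in their log2 ratios over 28320 probes. The probe of badb, the only measured symbol for Bad, gave log2 ratios of −0.42 and −0.20 at 24 hpf and of −0.30 and −0.20 at 12 hpf, lower in the morphant on all 4 arrays (adjusted p = 0.0160 and 0.0357). The badb call was lost without 24 hpf replicate 1 (−0.20) and without either 12 hpf array (−0.20 and −0.30). At both ages it was also lost with a normexp offset of 10, median centring (as small as −0.053 at 12 hpf, adjusted p = 0.835), plain subtraction, processed signals and deposited ratios, with the same sign throughout. In the wild type, all 12 tested skeletal muscle markers and all 6 erythroid markers were higher at 24 hpf than at 12 hpf (limma adjusted p under 0.05), and 5 of 6 lens markers, as the labelled ages call for. All ratios below are log2 of morphant over wild type for the brightest probe of a gene, after loess within arrays. They carry the SD over n = 2 arrays, and adjusted p-values are from limma with Benjamini-Hochberg adjustment over all 28320 probes, at a threshold of 0.05. The number of arrays limits their precision.

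After loess, many of these genes had less mRNA in the morphants at 24 hpf, and a few had more. This balance depended on the normalization, as given below. Of the 32 genes tested, 12 fell, 4 rose and 16 did not pass, against 14.1% of all genes lower and 12.1% higher (26.2% either way). The genes that fell were led by gpia (1.86-fold), pfkfb4b (1.80-fold), pck2 (1.66-fold) and ldha (1.64-fold), and those that rose were gapdh, tpi1a, pkmb and aldoab. At 12 hpf 8 fell, 2 rose and 22 did not pass, against 10.9% of all genes lower and 12.4% higher (23.3% either way). There eno1a (2.09-fold), pfkfb3 (2.05-fold) and ldha (1.64-fold) led the falls, and gapdh and tpi1a were the rises. In all, 7 genes passed at both ages, 9 at 24 hpf without passing at 12 hpf, 3 at 12 hpf without passing at 24 hpf, and 13 at neither age. This overlap of the ages was not counted over all genes, so it has no background here. The median ratio over the 32 genes was −0.10 at 24 hpf and −0.05 at 12 hpf, with −0.0028 and −7.4e-04 over all genes. These genes were brighter than most, with a median at percentile 72.6 of the probes tested.

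The count at 24 hpf depended on single arrays and on how the signal was corrected. Fewer than 16 of the 32 genes passed without either 24 hpf array, and fewer of all genes too. Each of these fits left 1 array at that age, with a median ratio of −0.11 over the 32 genes. The processed signals of the scanner software gave 0 by limma (15 at an unadjusted p under 0.05, and 1 passed with the deposited ratios), where 0.0294% of all genes passed, although all 16 kept their direction. Under median centring instead of loess, 4 genes were lower and 4 higher at 24 hpf, where 15.3% of all genes passed. Of these 8 genes, 6 were among the 16 of the main setting. At 12 hpf 4 were lower and 3 higher, where 16.7% of all genes passed, and 5 of these 7 were main-setting calls. With plain background subtraction and median centring, 1 gene was lower and 3 were higher at 24 hpf, where 9.43% of all genes passed. Of these 4 genes, 3 were among the 16. The 1 gene that passed with the deposited ratios was higher, where 0.353% of all genes passed, and was not among the 16. The 24 hpf calls of gpia and gapdh were lost with the processed signals and the deposited ratios and under none of the other alternatives. At 12 hpf the calls of gapdh, eno1a, ldha, aldocb and pfkfb3 held under all 14 alternatives.

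**Figure D1:**
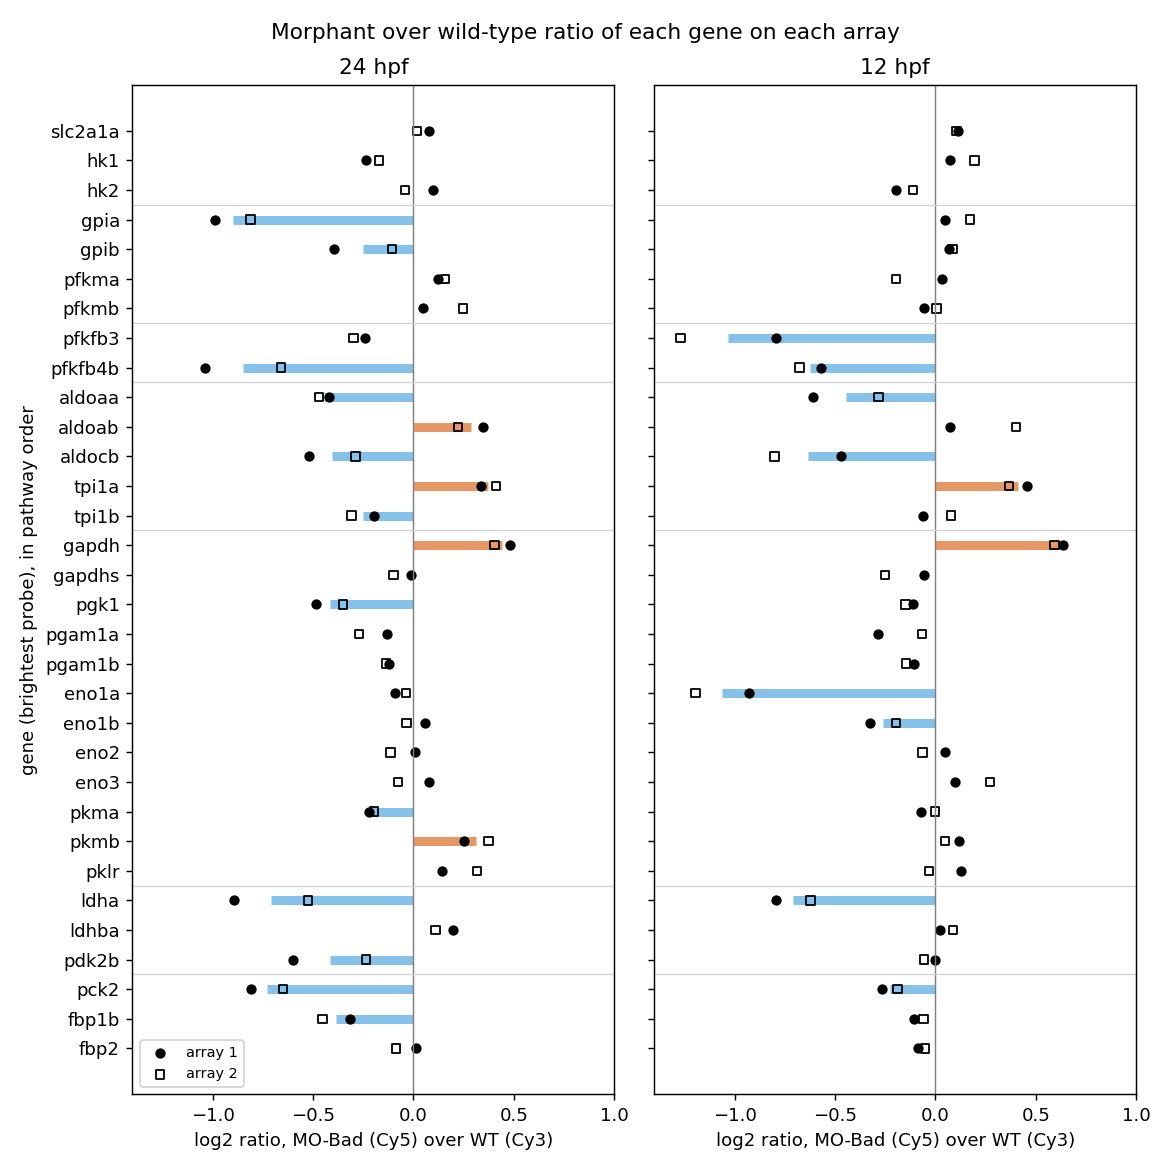
Log2 ratio of MO-Bad (Cy5) over WT (Cy3) for the 32 genes tested, in pathway order, at 24 hpf (left) and 12 hpf (right). Filled circles are replicate 1 and open squares replicate 2 of each age, and a coloured bar runs to the mean where limma's adjusted p was under 0.05 (blue lower, orange higher in the morphant). At 24 hpf 12 bars point left and 4 right, at 12 hpf 8 left and 2 right.

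The 3 tested pathway genes for the first steps, by which glucose enters the cell and is trapped, passed at neither age. The glucose transporter gene slc2a1a had ratios of 0.08 and 0.02 at 24 hpf and of 0.11 and 0.11 at 12 hpf, and its wild-type signal was not well above background at 12 hpf. The hexokinase gene hk1 was at −0.24 and −0.17 at 24 hpf (adjusted p = 0.0541), against 0.07 and 0.19 at 12 hpf (adjusted p = 0.177). Its ratio lay below 0 on both older arrays and above 0 on both younger ones, and the difference between ages, −0.34 ± 0.09 (SE), just missed the threshold (adjusted p = 0.0546). The other hexokinase gene of the 32, hk2, stayed between −0.20 and 0.10 on the 4 arrays. Among further genes of these steps, slc2a2 rose at 12 hpf (0.50, adjusted p = 0.00311) and hkdc1 fell (−0.32, adjusted p = 0.0131). The transporter gene slc2a10 fell at 24 hpf (−0.31, adjusted p = 0.0189), and slc2a3a, slc2a8 and slc2a12 passed at neither age.

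Glucose-6-phosphate isomerase, the next enzyme, differed between the ages. The ratio of gpia (NM_144763) was −0.99 and −0.81 at 24 hpf and 0.05 and 0.17 at 12 hpf. The morphant was thus lower on both older arrays and slightly higher on both younger ones, and the values of the ages did not overlap. The mean fell by 0.90 ± 0.12 at 24 hpf (adjusted p = 0.000126) and was 0.11 ± 0.09 at 12 hpf (adjusted p = 0.30), and the difference of −1.01 ± 0.10 (SE) passed its own test (adjusted p = 0.00106), as 6.84% of all genes did in that direction. Median centring gave −0.53 for gpia at 24 hpf, which still passed. Its paralogue gpib had ratios of −0.39 and −0.11 at 24 hpf (adjusted p = 0.0464) and of 0.07 and 0.08 at 12 hpf. Both copies lay on the same side at each age, and that of gpib was the weaker call, lost without 24 hpf replicate 1 (−0.11). The muscle-type phosphofructokinase genes did not pass. For pfkma, which encodes a catalytic subunit of the committed step, ratios ranged from −0.20 to 0.16. The pfkmb probe, between −0.06 and 0.25, was not well above background in the wild type on any array.

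Bifunctional enzymes make and degrade fructose-2,6-bisphosphate, the strongest allosteric activator of phosphofructokinase. Of these the pathway genes were pfkfb3 and pfkfb4b. Both fell at 12 hpf and 1 of the 2 at 24 hpf, where 10.9% and 14.1% of all genes fell. Among further genes of this family, pfkfb1 fell at 24 hpf (−0.27, adjusted p = 0.0152) and did not pass at 12 hpf (−0.14, adjusted p = 0.142). The gene pfkfb4a passed at neither age (−0.11 at 24 hpf and −0.13 at 12 hpf). The ratio of pfkfb3 (NM_213397) was −0.24 and −0.30 at 24 hpf and −0.80 and −1.27 at 12 hpf. It was below 0 on every array and lower on both younger arrays than on either older one. The mean fell by 1.03 ± 0.33 at 12 hpf (adjusted p = 0.000192), against −0.27 ± 0.04 at 24 hpf (adjusted p = 0.0820). The difference of 0.76 ± 0.14 (SE) passed (adjusted p = 0.0133), as 3.99% of all genes did in that direction. For pfkfb4b (NM_198816) the ratios were −1.04 and −0.66 at 24 hpf and −0.57 and −0.68 at 12 hpf, so that all 4 arrays were low and the ages overlapped. It fell by 0.85 ± 0.27 at 24 hpf (adjusted p = 0.000414) and by 0.62 ± 0.07 at 12 hpf (adjusted p = 0.00150), where median centring gave −0.27 and no call. Its other 2 probes also fell at both ages, by 0.69 and 0.47 at 24 hpf and by 0.45 and 0.36 at 12 hpf.

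The aldolases, which split fructose-1,6-bisphosphate, moved in opposite directions. The ratio of aldoaa (NM_194377) was −0.42 and −0.47 at 24 hpf and −0.61 and −0.28 at 12 hpf. It fell by 0.45 ± 0.03 at 24 hpf (adjusted p = 0.00535) and by 0.45 ± 0.23 at 12 hpf (adjusted p = 0.00516), where leaving out 12 hpf replicate 1 ended the call (−0.28). Under median centring aldoaa was at −0.054 at 24 hpf (adjusted p = 0.845) and at −0.034 at 12 hpf (adjusted p = 0.897), and plain subtraction, processed signals and deposited ratios also ended both calls. For aldocb (NM_194384), whose mammalian counterpart is the brain form, the ratios were −0.52 and −0.29 at 24 hpf and −0.47 and −0.80 at 12 hpf. It fell by 0.40 ± 0.16 at 24 hpf (adjusted p = 0.0130), where leaving out 24 hpf replicate 1 (−0.29) or median centring (−0.19) ended the call, and by 0.64 ± 0.23 at 12 hpf (adjusted p = 0.00147). The dimmer aldocb probe was closer to 0, with −0.26 at 24 hpf (adjusted p = 0.0442) and −0.17 at 12 hpf (adjusted p = 0.162). It had wild-type spot signals of 52 and 56.5 at 12 hpf, where the arrays' median background in that channel was 29 and 31.

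The third measured aldolase gene, aldoab, is a muscle gene. Its ratios were 0.35 and 0.22 at 24 hpf and 0.07 and 0.40 at 12 hpf, above 0 on each array. It rose by 0.28 ± 0.09 at 24 hpf (adjusted p = 0.0392), a call lost without either of the 24 hpf arrays (0.22 and 0.35) and with processed signals (0.13), while median centring gave 0.93, and was 0.24 ± 0.23 at 12 hpf (adjusted p = 0.0721). On every array the ratio of aldoab exceeded that of aldoaa by 0.68 to 0.77, and no test was made between probes. Skeletal muscle markers moved the same way at 24 hpf, where 7 of 12 rose and 1, the slow myosin gene smyhc1, fell, against 12.1% and 14.1% of all genes. Their summed normalized intensity in the morphant was 1.23 and 1.19 times that in the wild type at 24 hpf and 0.957 and 1.15 times at 12 hpf. All 12 were above background at 24 hpf in both channels, but only 8 and 7 on the 12 hpf arrays in each channel. At 24 hpf 6 of 6 lens markers also rose (summed 1.43 and 1.55 times the wild type), as did 3 of 6 erythroid markers (1.44 and 1.47 times), and posterior mesoderm markers fell (5 of 7, summed 0.584 and 0.573 times). At 12 hpf 3 of the 7 posterior mesoderm markers rose and 0 fell (summed 1.13 and 1.05 times), against 12.4% and 10.9% of all genes. Of 9 neural markers 1 rose and 0 fell at 24 hpf (summed 0.962 and 1.02 times), while aldocb fell. At 12 hpf 2 neural markers rose and 0 fell (summed 0.994 and 0.978 times), against 12.4% and 10.9% of all genes. Of 6 yolk syncytial layer and liver markers, 3 rose and 1 fell at 12 hpf (summed 1.23 and 1.12 times). At 24 hpf 1 rose and 1 fell (0.974 and 0.925 times). Of 5 maternal markers, 2 rose and 1 fell at 12 hpf (1.22 and 1.27 times). For these too, 1 rose and 1 fell at 24 hpf (0.953 and 1.08 times). The part of these cell types in the aldoab ratio, and in the other ratios, was not tested.

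Triosephosphate isomerase, which interconverts the products of aldolase, showed a split between its copies. The ratio of tpi1a (NM_153667) was 0.34 and 0.41 at 24 hpf and 0.46 and 0.37 at 12 hpf. It rose by 0.37 ± 0.05 at 24 hpf (adjusted p = 0.00414) and by 0.41 ± 0.06 at 12 hpf (adjusted p = 0.00243), with all 4 arrays close together. Without 24 hpf replicate 2 the older call was lost (0.34), as it was with median centring, processed signals and deposited ratios. The 12 hpf call was lost with median centring. The ratio of tpi1b was −0.20 and −0.31 at 24 hpf and −0.06 and 0.08 at 12 hpf. It fell by 0.25 ± 0.08 at 24 hpf (adjusted p = 0.0282), a call lost without either 24 hpf array, and the value was 0.050 under median centring. The ratio of tpi1a exceeded that of tpi1b on every array, by 0.29 to 0.72.

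**Figure D2:**
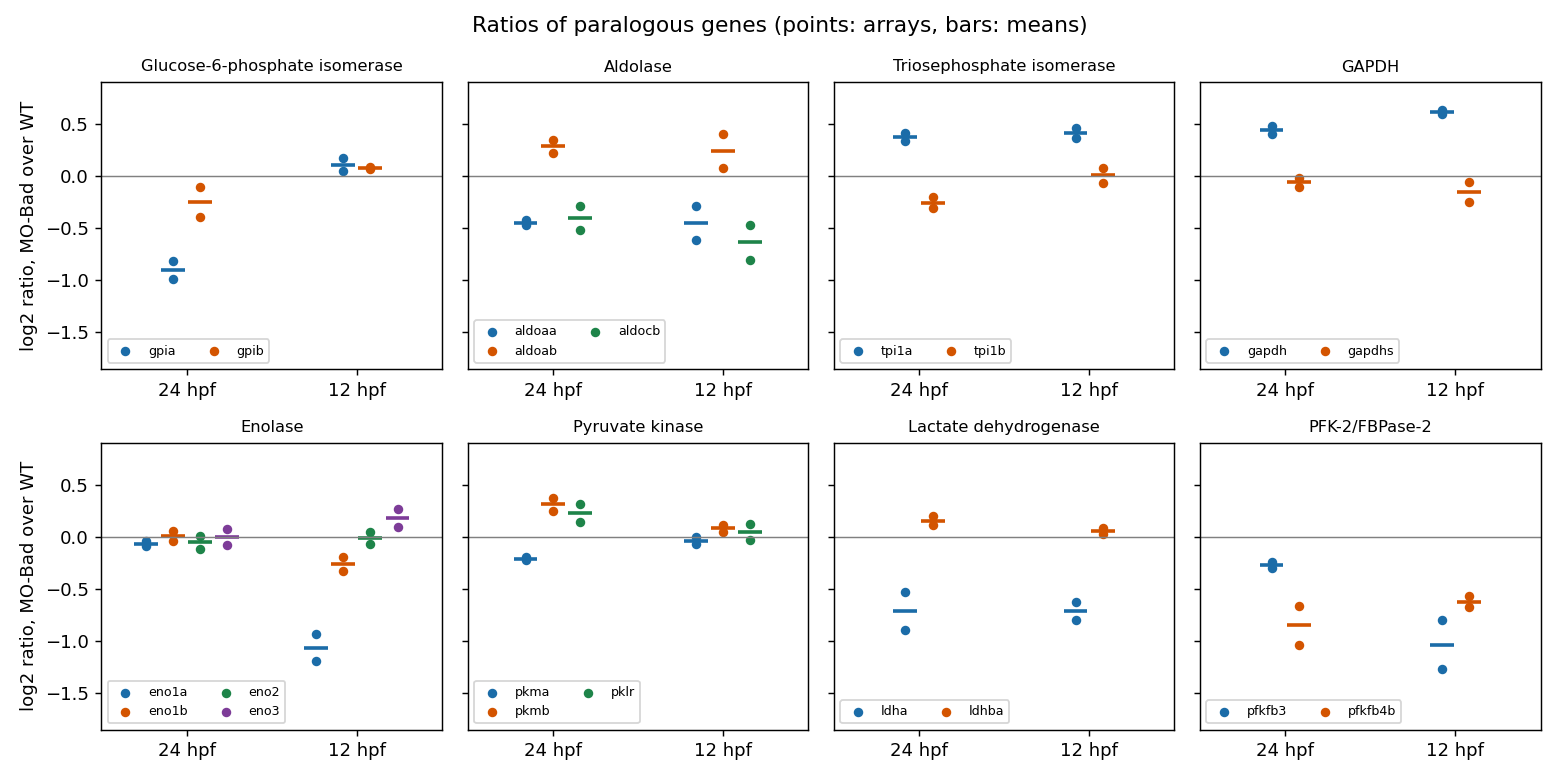
Log2 ratio of MO-Bad over WT for paralogous genes of 8 enzymes at 24 hpf (left in each panel) and 12 hpf (right). Points are arrays and short bars the means of 2 arrays. The tpi1a, gapdh and ldhba points lie above those of tpi1b, gapdhs and ldha at both ages, and the gpia points lie below those of gpib at 24 hpf and overlap them at 12 hpf.

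Glyceraldehyde-3-phosphate dehydrogenase, which reduces NAD+ in the first step that conserves energy, was higher in the morphant at both ages for 1 of its 2 genes. The ratio of gapdh (NM_001115114) was 0.48 and 0.40 at 24 hpf and 0.64 and 0.59 at 12 hpf. It rose by 0.44 ± 0.05 at 24 hpf (1.36-fold, adjusted p = 0.00171) and by 0.61 ± 0.03 at 12 hpf (1.53-fold, adjusted p = 0.000269). The morphant was higher on all 4 arrays, and the 12 hpf call held in all 14 alternative settings tried. Median centring gave 1.01 at 24 hpf and 1.03 at 12 hpf, and processed signals 0.28 at 24 hpf without a call. The other gene, gapdhs, whose mammalian counterpart is the sperm form, lay between −0.25 and −0.01 and passed at neither age. Its dimmer probe fell at 24 hpf (−0.26, adjusted p = 0.0328), so the 2 gapdhs probes differ in their call but not in sign.

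The next enzymes of the lower pathway were lower or did not pass. For pgk1, which makes the first ATP of the pathway, the ratio was −0.49 and −0.35 at 24 hpf and −0.11 and −0.15 at 12 hpf. It fell by 0.42 ± 0.10 at 24 hpf (adjusted p = 0.00273) and was −0.13 ± 0.03 at 12 hpf (adjusted p = 0.188), and the difference between ages did not pass (adjusted p = 0.0888). The pgk1 call at 24 hpf was lost with median centring (−0.069, adjusted p = 0.797), plain subtraction, processed signals and deposited ratios. The phosphoglycerate mutase genes pgam1a and pgam1b were below 0 on all 4 arrays, between −0.28 and −0.07, without passing (adjusted p from 0.0819 to 0.174).

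Enolase, which makes phosphoenolpyruvate, was measured through 4 genes, of which eno1a changed most. The ratio of eno1a (NM_212722) was −0.09 and −0.04 at 24 hpf and −0.93 and −1.19 at 12 hpf. The younger morphants were far below their wild type and the older ones close to it. The gene fell by 1.06 ± 0.19 at 12 hpf (adjusted p = 6.2e-05), against −0.06 ± 0.04 at 24 hpf (adjusted p = 0.591), and the difference of 1.00 ± 0.11 (SE) passed (adjusted p = 0.00136). The other eno1a probe did not share this course, with ratios of −0.19 and −0.30 at 24 hpf (adjusted p = 0.0331) and of −0.25 and −0.09 at 12 hpf (adjusted p = 0.115). That probe was well above background on all 4 arrays in both channels. It was dim at 12 hpf, with wild-type spot signals of 50 and 54 (median background of these arrays 29 and 31), where the brighter probe had 622 and 823. Which of the 2 follows the transcript was not tested. The eno1b gene fell by 0.26 ± 0.09 at 12 hpf (adjusted p = 0.0218), a call lost without 12 hpf replicate 1 (−0.20), and its dimmer probe did not pass (−0.12, adjusted p = 0.211). The neuronal enolase gene eno2 lay between −0.11 and 0.05. The muscle-type gene eno3 lay between −0.08 and 0.27, and at 24 hpf its mean of −5.5e-04 was 0.50 (adjusted p = 0.0167) under median centring.

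Pyruvate kinase, the last step of glycolysis, again showed copies apart at 24 hpf. The ratio of pkma was −0.22 and −0.20 at 24 hpf and −0.07 and −0.0013 at 12 hpf. It fell by 0.21 ± 0.02 at 24 hpf (adjusted p = 0.0426). The ratio of pkmb was 0.25 and 0.37 at 24 hpf and 0.12 and 0.05 at 12 hpf. It rose by 0.31 ± 0.09 at 24 hpf (adjusted p = 0.0101), a call lost without 24 hpf replicate 2 (0.25), and that of pkma was lost without either 24 hpf array. The liver-type gene pklr, at 0.14 and 0.32 at 24 hpf, stood just outside the threshold (adjusted p = 0.0502).

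Of the genes that set the fate of pyruvate, ldha was lower at both ages. Lactate dehydrogenase A favours the reduction of pyruvate to lactate. The ratio of ldha (NM_131246) was −0.89 and −0.53 at 24 hpf and −0.80 and −0.62 at 12 hpf. It fell by 0.71 ± 0.26 at 24 hpf (adjusted p = 0.000963) and by 0.71 ± 0.12 at 12 hpf (adjusted p = 0.000833), with no array above −0.53. The 24 hpf call was lost with plain subtraction, processed signals and deposited ratios, with the same sign throughout, while the 12 hpf call held. The heart-type gene ldhba was at 0.20 and 0.11 at 24 hpf and at 0.02 and 0.09 at 12 hpf, and its 2 probes disagreed in sign at both ages (0.15 and −0.19 at 24 hpf, 0.06 and −0.13 at 12 hpf), none of which passed. The ratio of ldha was below that of ldhba on every array, by 0.64 to 1.09 for the brightest probes. The pyruvate dehydrogenase kinase gene pdk2b, whose product holds pyruvate back from the citrate cycle, had ratios of −0.60 and −0.24 at 24 hpf and of 2.1e-04 and −0.06 at 12 hpf. It fell by 0.42 ± 0.26 at 24 hpf (adjusted p = 0.00911), a call lost without 24 hpf replicate 1 (−0.24), and its wild-type signal at 12 hpf was not well above background.

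Of the 3 tested pathway genes assigned to gluconeogenesis, 2 fell at 24 hpf and 1 at 12 hpf, where 14.1% and 10.9% of all genes fell. The mitochondrial phosphoenolpyruvate carboxykinase gene pck2 (NM_213192) had ratios of −0.81 and −0.65 at 24 hpf and of −0.26 and −0.19 at 12 hpf. All 4 arrays were below 0, and the older ones lower than the younger. It fell by 0.73 ± 0.11 at 24 hpf (adjusted p = 0.000267) and by 0.23 ± 0.05 at 12 hpf (adjusted p = 0.0409). Under median centring the 24 hpf value was −0.32 and did not pass. The difference of −0.50 ± 0.10 (SE) passed (adjusted p = 0.0154), though not without 24 hpf replicate 1 (−0.42). Leaving out either 12 hpf array ended the 12 hpf call, and under median centring that value was 0.31, so its direction at 12 hpf depended on the normalization. The fructose-1,6-bisphosphatase gene fbp1b was at −0.32 and −0.45 at 24 hpf and at −0.11 and −0.06 at 12 hpf. It fell by 0.38 ± 0.10 at 24 hpf (adjusted p = 0.00408), a call lost without 24 hpf replicate 2 (−0.32), and the value was 0.021 under median centring. The other gene, fbp2, lay between −0.09 and 0.01. A further fructose-1,6-bisphosphatase gene, fbp1a, was at −0.18 at 24 hpf (adjusted p = 0.152) and at 0.17 at 12 hpf (adjusted p = 0.172). Glucose-6-phosphatase genes are counted with the further genes below.

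The difference between ages passed for 4 of the 32 genes, 2 in each direction, against 10.8% of all genes. These were gpia and pck2, whose ratio was lower at 24 hpf, and eno1a and pfkfb3, whose ratio was lower at 12 hpf. With either the processed signals or plain background subtraction the count was 0 by limma (11 and 10 genes at an unadjusted p under 0.05), and all 4 kept their direction. The normalized log2 intensities show what lay behind each. For gpia it was 13.03 and 13.28 in morphants and 14.02 and 14.09 in wild type at 24 hpf, against 12.21 and 12.16 in morphants and 12.17 and 11.98 in wild type at 12 hpf. The level was higher at 24 hpf in both groups, and the groups parted there. For eno1a it was 14.73 and 14.90 in morphants and 14.82 and 14.94 in wild type at 24 hpf, against 9.14 and 9.06 in morphants and 10.06 and 10.25 in wild type at 12 hpf. Here the groups overlapped at 24 hpf and were apart at 12 hpf.

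**Figure D3:**
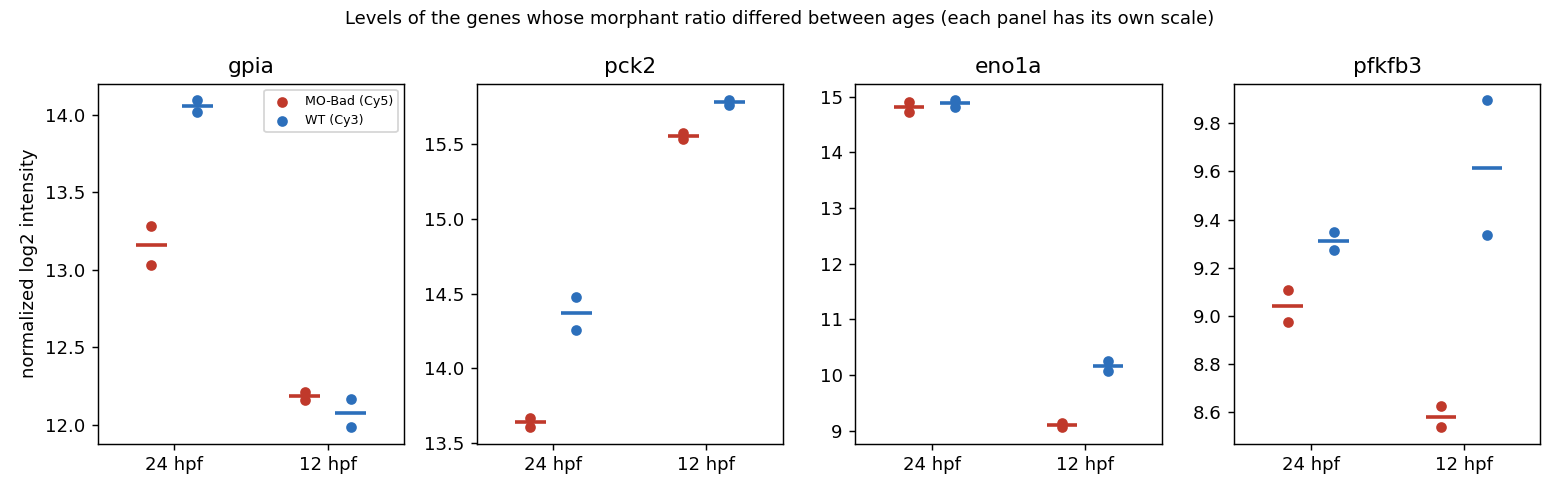
Normalized log2 intensity of the brightest probe in MO-Bad (Cy5, red) and WT (Cy3, blue) at 24 and 12 hpf for the 4 genes whose ratio differed between ages, each panel with its own scale that does not start at 0. Points are arrays and bars the means of 2. For gpia and pck2 the groups lie farther apart at 24 hpf, for eno1a and pfkfb3 at 12 hpf.

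In the wild type most of these genes were higher at the later age. Of the 32 genes 23 were higher at 24 hpf than at 12 hpf, 4 were lower and 5 did not pass, against 34.3% of all genes higher and 40.7% lower (75.1% either way), and the median change was 0.91, with −0.08 over all genes. These are Cy3 log2 intensities after normalization between arrays, set across arrays and not within one. The muscle aldolase gene aldoab rose by 8.27 ± 0.13 (SE, 308-fold, adjusted p = 1.3e-07), eno1a by 4.72 ± 0.10 (26.3-fold), gapdhs by 3.72 ± 0.10 (13.2-fold), pkmb by 3.08 ± 0.08 (8.43-fold) and pklr by 2.47 ± 0.11 (5.53-fold). Over the alternatives the rise ranged from 2.91 to 4.63 for pkmb and from 2.96 to 3.93 for gapdhs, so these sizes depended on the processing. The pkmb wild-type spot signals at 12 hpf were 53 and 58, where the arrays' median background was 29 and 31. The neuronal eno2 was not well above background in the wild type at 12 hpf by either of its probes. Their measured values put it 11.7-fold (the brighter) and 3.93-fold (the dimmer) higher at 24 hpf, and the low 12 hpf signals leave these folds uncertain. The genes that fell were pck2 (by 1.41 ± 0.10), pfkfb4b (by 0.69 ± 0.08), hk2 (by 0.47 ± 0.08) and fbp1b (by 0.36 ± 0.12). The fbp1b call was lost without any of 3 arrays, both at 12 hpf (−0.35 and −0.37) and 24 hpf replicate 1 (−0.20). Probes of a gene differed widely in the size of this change for aldocb (3.32 and 0.45), eno2 (3.55 and 1.97), gapdhs (3.72 and 2.19) and eno1a (4.72 and 3.43), with the same sign.

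Set beside these changes, the ratios at 24 hpf did not fall on one side. Of the 23 genes that rose in the wild type, 8 were lower in the morphant at 24 hpf, 4 were higher and the rest did not pass. Of the 4 that fell in the wild type, pck2, pfkfb4b and fbp1b were lower in the morphant as well, and hk2 did not pass. Over all genes 14.1% were lower and 12.1% higher at 24 hpf. The split by wild-type change was not counted over all genes, so it has no background here. For gpia the change from 12 to 24 hpf was 0.97 in the morphant and 1.98 in the wild type, for eno1a 5.72 and 4.72, for ldha 2.26 and 2.26, for pck2 −1.92 and −1.41 and for pfkfb3 0.46 and −0.30. The ratios and the wild-type change share the Cy3 channel, so values are given side by side with no measure of their relation.

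**Figure D4:**
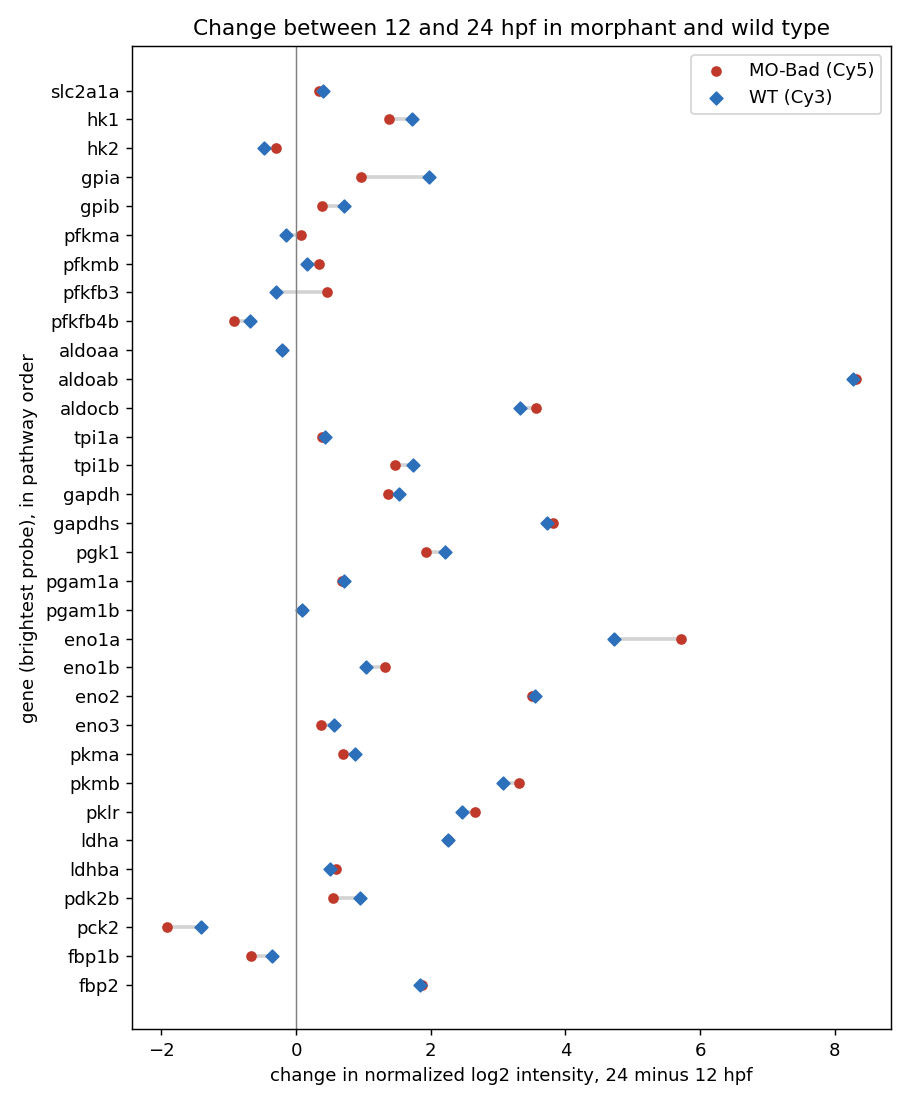
Change in normalized log2 intensity, 24 minus 12 hpf, in MO-Bad (Cy5, red circles) and WT (Cy3, blue diamonds) for the brightest probe of each of the 32 genes, joined by a grey line. Both markers lie to the right of 0 for most genes, and the widest gaps are those of gpia and eno1a, in opposite directions.

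Other genes of glucose handling, taken from further lists, were measured beside these. Of 19 measured genes among further glycolytic enzymes, sugar and lactate transporters and glucose-6-phosphatases, 7 fell and 1 rose at 24 hpf, and 4 fell and 1 rose at 12 hpf, with medians of −0.15 and −0.08. Over all genes 14.1% fell and 12.1% rose at 24 hpf, and 10.9% fell and 12.4% rose at 12 hpf. The lactate exporter gene slc16a3b fell by 0.35 ± 0.08 at 24 hpf (adjusted p = 0.00660, lost without 24 hpf replicate 1 at −0.29) and by 0.56 ± 0.09 at 12 hpf (adjusted p = 0.000582). The glucose-6-phosphatase gene g6pc1a.2 fell by 0.47 ± 0.20 and by 0.57 ± 0.30 (adjusted p = 0.0126 and 0.00520; lost without 24 hpf replicate 1 at −0.33 and without 12 hpf replicate 2 at −0.35). The transporter gene slc2a2 rose by 0.50 ± 0.16 at 12 hpf (adjusted p = 0.00311). For g6pc1a.1 the 24 hpf arrays gave −1.30 and −0.06 (adjusted p = 0.0480), and its call was lost without 24 hpf replicate 1 (−0.06).

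Of 30 measured genes of pyruvate dehydrogenase and the citrate cycle, 2 fell and 3 rose at 24 hpf and 2 fell and 2 rose at 12 hpf, shares below the 26.2% and 23.3% of all genes called at these ages. One that fell was pdha1b, a catalytic subunit gene of pyruvate dehydrogenase, with ratios of −1.09 and −1.403 at 24 hpf and of −0.0086 and 0.07 at 12 hpf. It fell by 1.245 ± 0.22 at 24 hpf (adjusted p = 4.8e-05), and the difference between ages was −1.27 (adjusted p = 0.000707). The pdha1b probe was not well above background in both channels on every array. Over the alternatives the difference ranged from −3.52 to −1.12, so its size depended on the processing. The succinate dehydrogenase gene sdhb rose by 0.50 ± 0.17 at 24 hpf (adjusted p = 0.00261). Of 13 glycogen genes 4 fell at 24 hpf and 2 at 12 hpf, where 14.1% and 10.9% of all genes fell. The glycogenin gene gyg1a, which primes glycogen, fell by 1.05 ± 0.01 at 12 hpf (adjusted p = 2.6e-05) and was at −0.10 ± 0.08 at 24 hpf (adjusted p = 0.322). The liver glycogen synthase gene gys2 fell by 0.47 ± 0.17 at 24 hpf (adjusted p = 0.00246). Of 7 pentose phosphate genes 1 fell at each age, near those shares, rbks at 24 hpf (−0.33 ± 0.09) and taldo1 at 12 hpf (−0.25 ± 0.01). The rbks call was lost without 24 hpf replicate 2 (−0.26) and that of taldo1 without either 12 hpf array (−0.24 and −0.25).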

How the data were processed

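Total RNA of pools of 200 embryos was labelled from 1 µg and hybridized to 4 Agilent 2-colour arrays, Cy5 for morphants and Cy3 for wild type, per the labels. Per the file headers, the arrays lay on 1 slide read in 1 scan, so no batch could be blocked. The submitters' processing notes give Agilent Feature Extraction 10.5.1.1. The deposited spot and background values are fluorescence intensity, not normalized, per the file headers. The same deposited tables hold processed signals (intensity after background subtraction and dye normalization), a log10 ratio and its p-value from the scanner software, per the file headers. The authors' deposited series-wide values equalled that log10 ratio at every spot (largest difference 0), with column medians of 0, and thus run Cy5 over Cy3. The array maker's annotation used an earlier assembly, and no positions are given.

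Median signals were corrected with normexp (offset 50) and ratios normalized by loess in limma 3.58.1 under R 4.3.3, with 1417 control spots and 2 to 9 outlier-marked spots per array at weight 0. Of 43603 probes, 28320 were kept, those marked above background by the scanner software for 1 dye or both on the 2 arrays of either age. Accessions matched without version gave symbols to 16770 of 19210 RefSeq probes. Each age's mean was tested against 0, and the difference 24 minus 12 hpf, with a spread shared by the 4 arrays (2 residual and 7.50 prior degrees of freedom), with a two-sided test. Changes of log2 values are computed here from the deposited intensities. Wild-type levels were Cy3 after Aquantile normalization, with 4.37 prior degrees of freedom. The p-values reflect the spread of these pools alone. Every pathway gene passing at an age or between ages was named, and at most 3 genes per further list and age. Further genes of the same step were also named beside some pathway genes. A few genes of the further lists are counted but not reported singly here. The members and lists were chosen with earlier results of these data known. The procedure was tested on simulated data.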

Additional observations from a re-analysis of the deposited data

Results flagged for a closer look

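The ratio of morphant over wild type differed between the ages by a test of the difference itself (limma, adjusted p under 0.05) for 4 pathway genes and 3 genes of the further lists. The 4 are 12.5% of the 32 tested, near the 10.8% of all genes. The 3 were 1 of 30 genes of pyruvate dehydrogenase and the citrate cycle, and 1 higher and 1 lower of 13 glycogen genes. None of the 19 other glycolysis and transport genes or the 7 pentose phosphate genes passed. As log2 differences, 24 hpf minus 12 hpf, these were −1.01 for gpia (adjusted p = 0.00106), −0.50 for pck2 (adjusted p = 0.0154), 1.00 for eno1a (adjusted p = 0.00136) and 0.76 for pfkfb3 (adjusted p = 0.0133). In the further lists they were −1.27 for pdha1b (adjusted p = 0.000707), 0.95 for gyg1a (adjusted p = 0.000952) and −0.41 for gys2 (adjusted p = 0.0395). The pck2 value was −0.42 without 24 hpf replicate 1, and that of gys2 −0.40, −0.42 and −0.30 without 12 hpf replicate 1, 12 hpf replicate 2 and 24 hpf replicate 1, none past the threshold. None of the 7 passed with the scanner software's processed signals, the deposited ratios or plain background subtraction, although each kept its direction there. The eno1a value belongs to its brightest probe, and its other probe gave −0.08 (adjusted p = 0.670). The pdha1b value ranged from −3.52 to −1.12 over the alternatives.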

How the results depend on the processing

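At 24 hpf the count of pathway genes past the threshold was 16 of 32. It was 10 with a normexp offset of 10, 8 with median centring in place of loess, 4 with plain background subtraction and median centring, 0 with the processed signals and 1 with the deposited ratios (15 at an unadjusted p under 0.05 with each of the last 2). Leaving out 1 array gave 10 to 19. For the difference between ages, 4 in the main setting, the count was 2 with the smaller offset and 0 with plain subtraction, processed signals or deposited ratios (10, 11 and 11 at an unadjusted p under 0.05), and 3 to 6 without 1 array. At 12 hpf (10) it stayed between 7 and 11, and for the wild-type change (27) between 23 and 28, over all settings tried. Of the 16 pathway genes called at 24 hpf, fbp1b (0.021) and tpi1b (0.050) changed sign, both with median centring. It also turned pck2 at 12 hpf (0.31, and 0.13 with plain subtraction) and put eno3 at 0.50 (adjusted p = 0.0167) at 24 hpf. In the further lists, median centring and plain subtraction turned taldo1 at 12 hpf (0.22 and 0.035) and gsk3ab (0.10 and 0.017) at 24 hpf. For g6pc1a.1 the 24 hpf value was 0.13 without background subtraction and 0.29 with processed signals or deposited ratios. The cause was not tested. With the replicate number as a block, 4 genes passed between ages and 27 in the wild type. The deviations of same-numbered arrays correlated at −0.04 (ratios) and −0.14 (Cy3). With 2 arrays per age this cannot show whether they share more than a number. With crossed numbers, chosen after seeing the data, 27 passed. Probes near background limit the ratios of slc2a1a, eno2 and pdk2b at 12 hpf and of pfkmb at both ages. In the further lists, the pdha1b probe was not well above background in both channels on every array.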
